A study of Homo sapiens with 12 samples.

Results

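The messenger RNAs of 10 secreted inflammatory mediators were followed in tumour cells depleted of LARP4A or LARP4B: the chemokines CXCL1, CXCL2, CXCL3, CXCL5, CXCL6, CXCL8 and CCL2, and the interleukins IL6, IL1A and IL1B. They were taken from the tables by gene symbol and are 10 of the 26415 gene symbols used. PC3, a human prostate carcinoma line grown in RPMI 1640, and MG63, a human osteosarcoma line grown in Alpha-MEM, received 10 nM of a non-targeting siRNA (siControl), an siRNA against LARP4A (siLARP4A) or an siRNA against LARP4B (siLARP4B) with Lipofectamine RNAiMAX. All groups were labelled wild type and shared the carrier, the 10% fetal bovine serum and the 72 h before poly(A) RNA was collected. Each of the 6 groups had 2 libraries, described in the series design as biological replicates. The labels did not say how many siRNA sequences were used per target, and each cell type was represented by 1 line.

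LARP4A (gene symbol LARP4) and LARP4B are related RNA-binding proteins of the cytoplasm that associate with poly(A)-binding protein and with messenger RNA 3′ ends. The 6 CXC chemokines studied here recruit neutrophils through the receptor CXCR2, and CXCL6 and CXCL8 also act on CXCR1, while CCL2 recruits monocytes through CCR2. IL1A and IL1B signal through IL1R1, IL1RAP and MYD88 to NF-kB, a transcription factor that in turn drives chemokine genes and IL6. IL6 signals through IL6R and IL6ST to STAT3. Many of these messengers are short-lived because AU-rich elements in their 3′ untranslated regions recruit decay factors.

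The 6 CXC genes lie on chromosome 4 within 358.627 kb, from CXCL8 at 73740569 to the start of CXCL2 at 74099195 (hg38 coordinates of the deposited models). Their promoter stretches are shown because all 6 carry the same letters of an NF-kB site at nearly the same distance from the start. Each line gives the 130 bases before the transcription start, 5′ to 3′ on the gene's strand, from RefSeq on GRCh38.p14, with the match to GGAATTTCC in capitals.

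CXCL8 (chr4:73740439-73740568, plus strand): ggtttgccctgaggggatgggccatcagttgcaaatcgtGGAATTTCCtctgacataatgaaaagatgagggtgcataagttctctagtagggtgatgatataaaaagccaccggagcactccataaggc
CXCL6 (chr4:73836548-73836677, plus strand): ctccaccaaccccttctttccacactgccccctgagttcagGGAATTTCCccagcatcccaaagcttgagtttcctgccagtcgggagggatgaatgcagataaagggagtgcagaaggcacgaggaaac
CXCL5 (chr4:73998678-73998807, minus strand): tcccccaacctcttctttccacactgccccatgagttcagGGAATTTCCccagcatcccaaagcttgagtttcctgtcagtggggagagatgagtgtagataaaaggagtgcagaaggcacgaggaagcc
CXCL1 (chr4:73869263-73869392, plus strand): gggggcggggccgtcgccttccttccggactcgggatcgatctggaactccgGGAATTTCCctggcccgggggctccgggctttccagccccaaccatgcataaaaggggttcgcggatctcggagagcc
CXCL3 (chr4:74038690-74038819, minus strand): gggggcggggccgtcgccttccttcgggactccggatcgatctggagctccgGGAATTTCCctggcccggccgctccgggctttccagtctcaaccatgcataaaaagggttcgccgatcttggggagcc
CXCL2 (chr4:74099196-74099325, minus strand): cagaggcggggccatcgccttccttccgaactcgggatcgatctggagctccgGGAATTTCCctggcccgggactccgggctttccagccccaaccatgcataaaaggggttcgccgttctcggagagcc

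The match began 77 to 91 bases before the start in all 6 genes. Searched on both strands from 250 bases before to 50 after the start, GGAATTTCC was present in 6 of the 9 promoters found for the 10 genes and in 0.472% of 27305 RefSeq promoters. The printed stretches fell into 2 families and CXCL8. CXCL1 shared 92.4% of aligned positions with CXCL2 and 91.5% with CXCL3, and CXCL5 shared 90.8% with CXCL6. CXCL8 shared 43.8% to 47.8% with the others. A looser NF-kB form, GGG followed by any 2 bases and TTTCC, overlaps the first motif and was present in CXCL1, CXCL2, CXCL3, CXCL5, CXCL6 and IL6 (in IL6, 73 bases before the start) and in 1.92% of promoters. A motif match describes letters, and binding was not measured.

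In the 3′ untranslated regions, the AU-rich nonamer TTATTTATT was found in 5 of the 10 genes, against 7.16% of 19115 protein-coding genes (GENCODE release 29, 1 transcript per gene, sense strand). The first nonamer of each is shown in capitals with its flanks, because such elements are known sites of decay control in chemokine messengers.

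CXCL1 (chr4:73870674-73870702): agtcttctatTTATTTATTtattcattag
CXCL2 (chr4:74097590-74097618): agtcttctatTTATTTATTtatttattta
CXCL3 (chr4:74036773-74036801): atgtcagttgTTATTTATTcaaattatct
CXCL8 (chr4:73742664-73742692): atgtaaagtaTTATTTATTtgaatctaca
IL1B (chr2:112829995-112830023): gcttccctatTTATTTATTtatttgtttg

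Counting overlapping matches, CXCL2 held 5 nonamers, CXCL1 held 3, IL1B held 2, and CXCL3 and CXCL8 held 1 each. The shorter pentamer ATTTA occurred 11 times in the 1995 bases of the CXCL5 region and 9 times in the 1252 of CXCL8. It occurred 10 times in the 721 bases of CXCL2, 6 times in the 429 of IL6 and 1 time in the 376 of CCL2. Of genes with regions of similar length, 5.45% held at least as many as CXCL5 and 2.92% as many as CXCL8. The same share was 0.0438% for CXCL2, 0.798% for IL6 and 44.9% for CCL2. The coding and untranslated parts of CXCL1, CXCL2 and CXCL3 are alike in places: 60 of the 1048 windows of 50 bases in the CXCL1 messenger occur unchanged in CXCL2, and 54 of the 1169 in CXCL2 occur in CXCL3. How fragments matching several genes were counted is not given in the sources used here, so the counts of these 3 genes are uncertain to that extent.

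The knockdown was checked first. LARP4 fell to 12.6% of its siControl level in PC3 and to 25.8% in MG63 after siLARP4A, and LARP4B to 18.4% and 30.5% after siLARP4B. The other family member stayed between 96.2% and 104.2% of siControl, except that LARP4 was at 132.8% after siLARP4B in MG63 (11.1 ± 0.654 against 8.34 ± 0.227 FPKM; SD, n = 2). Library totals ran from 16950119 to 24864977 fragments, and every library was used under its label. The libraries of a group differed by a chi-square per degree of freedom of 1.65 to 2.63 in 4 groups, 6.47 in PC3 siLARP4A and 5.21 in MG63 siLARP4B, where counting noise alone gives 1. The fit shared 1 spread between all groups. PC3 held the epithelial markers EPCAM (18.6 to 25.3 FPKM) and CDH1 (3.23 to 4.62 FPKM), which had 0 to 2 fragments in each MG63 library. The epithelial markers KRT8 and KRT18 were expressed in both lines, at 203 to 301 and 261 to 318 FPKM in PC3. In MG63 they were at 25.7 to 30.2 and 26.8 to 40.2 FPKM. MG63 held COL1A1 at 719 to 1337 FPKM, whereas the osteoblast regulator RUNX2 was low in both lines (0.140 to 0.654 FPKM in MG63). FPKM is the fragment count scaled to the library total and to the transcript's length in kilobases. In bulk RNA, fewer expressing cells and less RNA per cell cannot be told apart.

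The control levels set the lines apart, and the order of the genes differed. In PC3, CXCL1 was highest, with a mean of 30.0 FPKM ± 1.50 (SD, n = 2), followed by CXCL8 at 27.1 ± 2.11 and IL1B at 11.4 ± 0.163. CXCL6 (4.28 ± 0.718 FPKM) overlapped CXCL2 (3.45 ± 0.577), with CXCL3 below them at 1.73 ± 0.249. CCL2 (1.02 ± 0.372 FPKM) overlapped IL6 (0.939 ± 0.209), and IL1A (0.289 ± 0.0253) and CXCL5 (0.0444 ± 0.00184) closed the order. In MG63, CCL2 led at 43.0 ± 1.97 FPKM, followed by CXCL8 at 15.5 ± 0.409 and CXCL1 at 9.77 ± 0.943. CXCL3 (4.98 ± 0.827 FPKM) overlapped IL1B (4.72 ± 0.660). CXCL6 (0.679 ± 0.197 FPKM), CXCL2 (0.459 ± 0.0515), CXCL5 (0.167 ± 0.0844) and IL1A (0.142 ± 0.124) were low, the last pair overlapping.

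**Figure D1:**
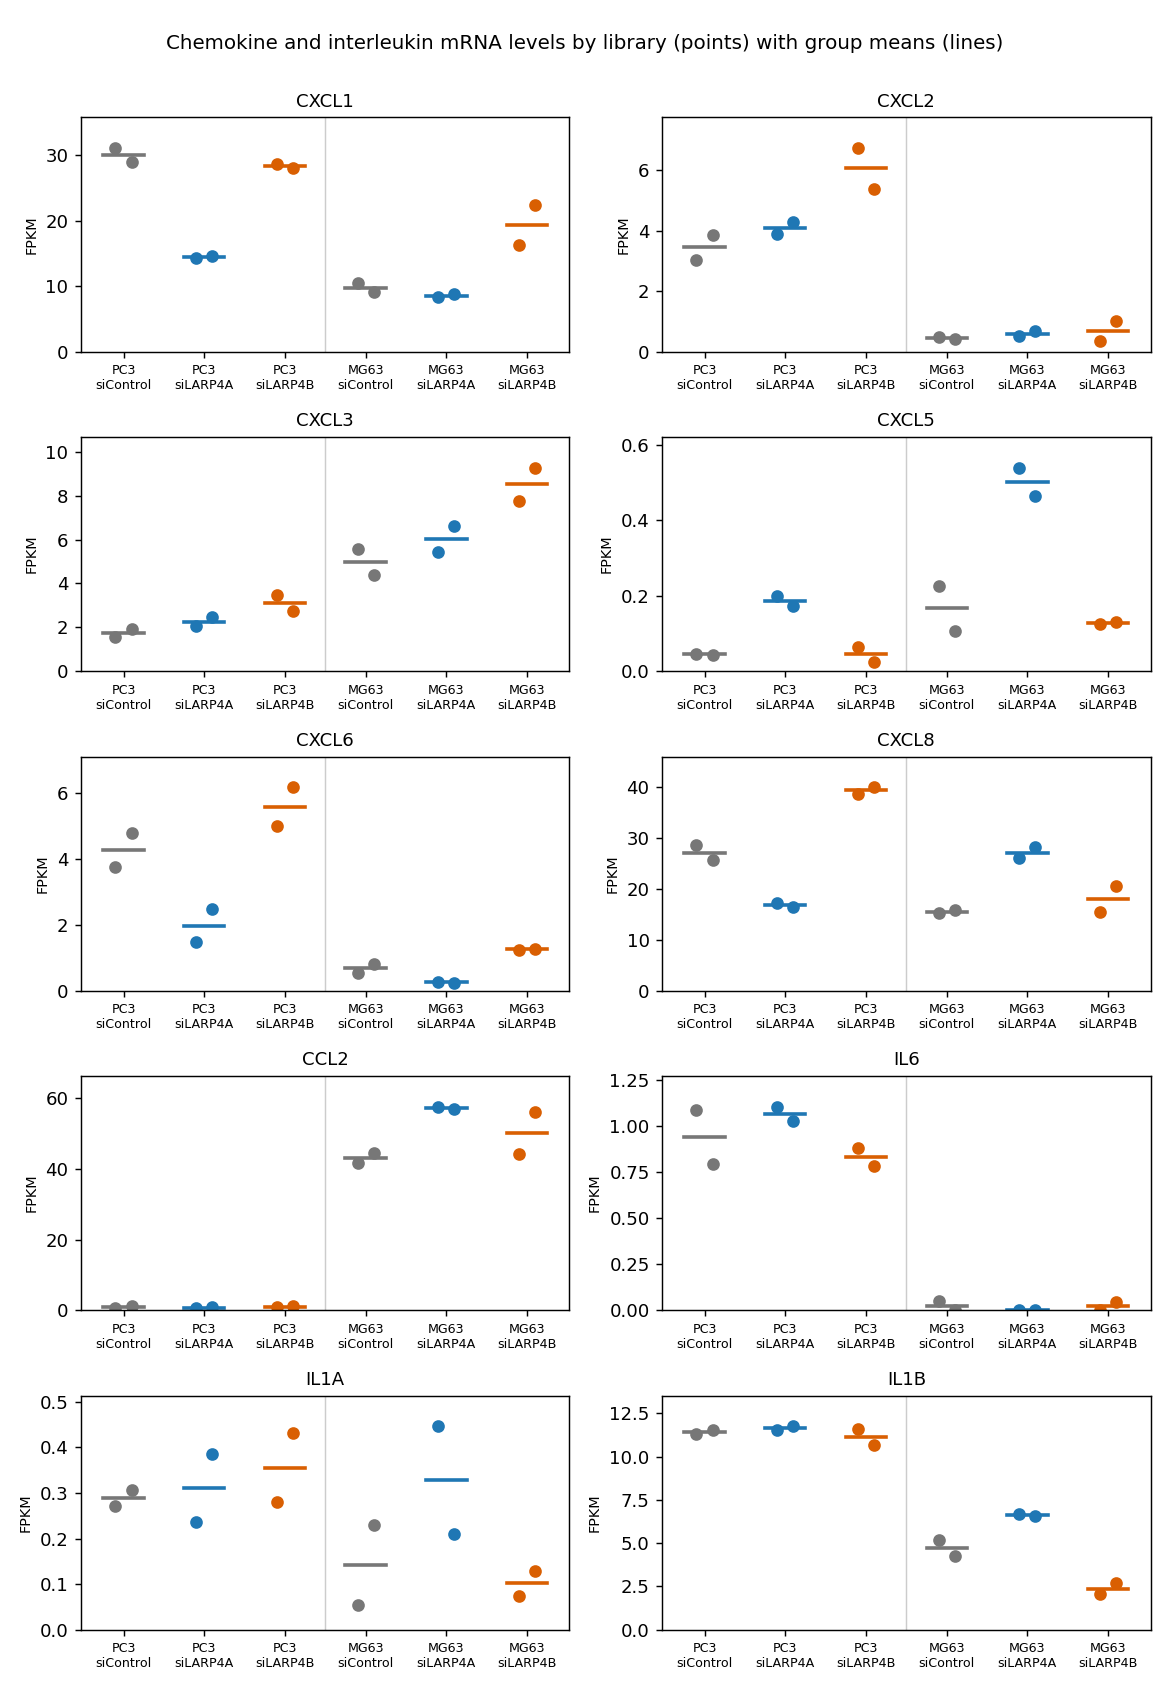
Expression of the 10 genes in FPKM (vertical axis, linear from 0) by group (horizontal axis), with 1 point per library and a line at the mean of each group. CXCL1 in PC3 sits at 14.2 and 14.6 after siLARP4A and between 27.9 and 31.1 in the other PC3 libraries, and CCL2 is at least 41.6 in every MG63 library and at most 1.28 in PC3.

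Between the siControl groups, 8 of the 9 genes that could be compared differed by edgeR's quasi-likelihood test at an adjusted p of 0.05, where 81.8% of all 15668 genes tested did (42.1% higher and 39.7% lower in PC3). CCL2 was lower in PC3 by the widest margin, with a log2 fold change of -5.54 ± 0.18 (SE; edgeR adjusted p = 5.8e-18). CXCL3 (-1.67) and CXCL5 (-1.99) were also lower in PC3. CXCL2 (2.74), CXCL6 (2.48), CXCL1 (1.46), IL1B (1.12) and CXCL8 (0.65) were higher in PC3, so CXCL2 and CXCL3, whose printed promoter stretches shared 87.8% of aligned positions, differed between the lines in opposite directions. The CXCL5 difference was lost without PC3 siControl replicate 2 or MG63 siControl replicate 1. IL1A gave 0.83 (edgeR adjusted p = 0.21).

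IL6 was detected in PC3 and barely in MG63. The PC3 libraries held 22 and 17 fragments with siControl, 31 and 22 with siLARP4A, and 19 and 15 with siLARP4B. The MG63 libraries held 1 and 0, 0 and 0, and 0 and 1. A count of 0 there allows up to 3 fragments, or 0.136 to 0.152 FPKM. The siControl groups gave 39 fragments in PC3 and 1 in MG63, a ratio of 39.2 per total fragments with an exact 95% interval of 6.63 to 1587 that covers counting error only. IL6 overlaps an annotated antisense gene, IL6-AS1, and the handling of strand is not given in the sources used here. No comparison between siRNAs was made for IL6 in MG63. In PC3, the log2 fold change of IL6 was 0.18 after siLARP4A (95% interval -0.49 to 0.85, edgeR adjusted p = 0.73) and -0.21 after siLARP4B (-0.94 to 0.53, edgeR adjusted p = 0.69).

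The first question was what depletion of LARP4A did to the 10 messengers in PC3. CXCL1, CXCL6 and CXCL8 fell, CXCL5 rose from a very low level, and the other 6 genes did not pass the test. This gave 4 of 10 genes past the threshold, 1 higher and 3 lower, where 36.0% of all tested genes passed (17.0% higher and 19.0% lower). The median log2 fold change was 0.03 over the 10 genes and 0.00 over all genes.

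CXCL1, a neutrophil chemokine first described as a melanoma growth factor, measured 31.1 and 29.0 FPKM with siControl and 14.2 and 14.6 with siLARP4A. The groups were far apart, with both treated libraries well below both controls. The log2 fold change was -1.07 ± 0.11 (edgeR adjusted p = 5.6e-08). CXCL8, the main human neutrophil attractant, went from 28.6 and 25.6 to 17.3 and 16.4 FPKM. These groups did not overlap either, and the log2 fold change was -0.70 ± 0.09 (edgeR adjusted p = 2.6e-06). CXCL6, which attracts neutrophils through both receptors, went from 3.77 and 4.78 to 1.47 and 2.47 FPKM. The 2 siLARP4A libraries differed more from each other here, and both were below the controls (log2 fold change -1.17 ± 0.21, edgeR adjusted p = 0.00015). CXCL5, the near relative of CXCL6, had 2 and 2 fragments with siControl and 12 and 8 with siLARP4A. Its log2 fold change was 2.00 ± 0.67 (edgeR adjusted p = 0.024) on these few fragments, and the call was lost without either siControl library or without siLARP4A replicate 1.

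CXCL2 and CXCL3, whose promoters resemble that of CXCL1, did not pass the test. CXCL2 measured 3.05 and 3.86 FPKM with siControl and 3.90 and 4.30 with siLARP4A, a log2 fold change of 0.23 with a 95% interval of -0.18 to 0.64. CXCL3 measured 1.56 and 1.91, then 2.06 and 2.46 FPKM, a log2 fold change of 0.35 with an interval of -0.13 to 0.84. Both intervals lay above that of CXCL1, which ran from -1.28 to -0.86, although the difference between genes was not tested. IL1B, the secreted interleukin 1, stood at 11.3 and 11.5 FPKM with siControl and 11.5 and 11.8 with siLARP4A. Its interval of -0.18 to 0.22 on the log2 scale was the narrowest of the 6. IL1A, the cell-associated interleukin 1, and CCL2 had 10 to 18 fragments in each of these libraries and gave 0.05 and -0.41, with intervals of -0.92 to 1.02 and -1.23 to 0.41.

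Depletion of LARP4B in PC3 gave a different set. CXCL8, CXCL2 and CXCL3 rose and none of the 10 fell. The 3 of 10 genes past the threshold compare with 44.7% of all tested genes in either direction (21.3% higher and 23.4% lower), and the median log2 fold change was 0.11 over the 10 genes against 0.00 over all genes. CXCL8 reached 38.7 and 40.0 FPKM, above both siControl values of 28.6 and 25.6. The log2 fold change was 0.49 ± 0.09 (edgeR adjusted p = 5.7e-05). CXCL2, a chemokine otherwise made by activated macrophages, reached 6.74 and 5.40 FPKM against 3.05 and 3.86. The increase was 0.77 ± 0.20 (edgeR adjusted p = 0.0034). CXCL3, its close relative, reached 3.45 and 2.75 FPKM against 1.56 and 1.91, an increase of 0.80 ± 0.24 (edgeR adjusted p = 0.0089). The groups did not overlap for any of the 3 genes. Without siLARP4B replicate 1, only 1 of the 3 calls remained, that of CXCL8, and the CXCL3 call was also lost without siControl replicate 1.

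CXCL1 measured 28.6 and 27.9 FPKM after siLARP4B in PC3, overlapping neither the siLARP4A libraries nor, by a small margin, the siControl libraries. Its log2 fold change from siControl was -0.13, with an interval of -0.32 to 0.07 (edgeR adjusted p = 0.32). CXCL6 measured 4.99 and 6.18 FPKM, a log2 fold change of 0.34 (edgeR adjusted p = 0.15). IL1B measured 11.6 and 10.7 FPKM, with a log2 fold change of -0.08 and an interval of -0.28 to 0.13. CCL2 (12 and 14 fragments), IL1A (11 and 15) and CXCL5 (3 and 1) did not pass the test.

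Setting siLARP4A directly against siLARP4B in PC3, CXCL8, CXCL6, CXCL1 and CXCL2 were lower with siLARP4A and CXCL5 was higher. This was 5 of 10 genes, where 54.2% of all tested genes passed (27.0% higher and 27.2% lower). The log2 differences were -1.19 for CXCL8 (edgeR adjusted p = 1.6e-10), -1.50 for CXCL6 (edgeR adjusted p = 1.8e-06) and -0.94 for CXCL1 (edgeR adjusted p = 1.2e-07). CXCL2 differed by -0.55 (edgeR adjusted p = 0.020), and was not called without replicate 1 of either siRNA. CXCL5 differed by 2.01 (edgeR adjusted p = 0.015), and was not called without siLARP4A replicate 1 or siLARP4B replicate 2. Without siLARP4A replicate 1 the count was 3. The summed level of the 6 CXC chemokines was 68.1 and 65.2 FPKM with siControl, 39.1 and 40.3 with siLARP4A, and 82.6 and 82.3 with siLARP4B. In MG63 the same sum was 32.5 and 30.6 with siControl, 41.1 and 45.0 with siLARP4A, and 41.2 and 54.5 with siLARP4B. The siLARP4A libraries were thus below their controls in PC3 and above them in MG63. The sums were not tested.

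**Figure D2:**
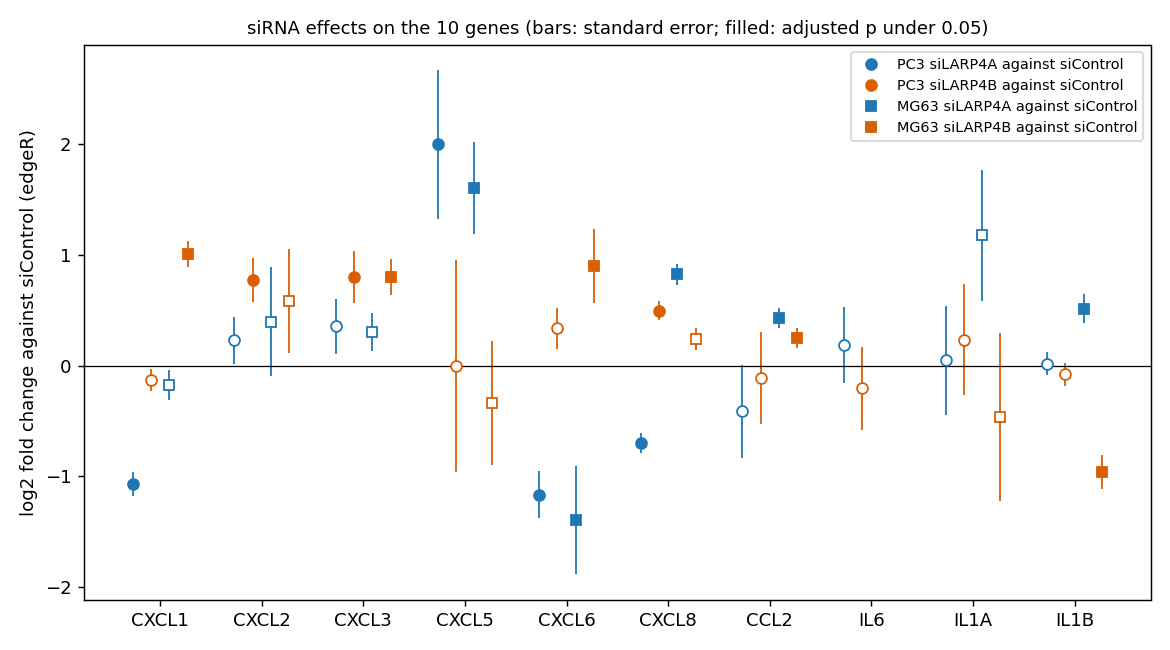
Log2 fold change against siControl (vertical axis) of each gene (horizontal axis), in PC3 (circles) and MG63 (squares), for siLARP4A (blue) and siLARP4B (orange). Bars are the standard error and filled symbols passed an edgeR adjusted p of 0.05. For siLARP4A, CXCL8 is at -0.70 in PC3 and 0.82 in MG63, and for siLARP4B, CXCL1 is at -0.13 in PC3 and 1.01 in MG63. IL6 is shown for PC3 only.

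In MG63, CXCL8, CCL2, IL1B and CXCL5 rose and CXCL6 fell after siLARP4A. This was 5 of the 9 genes compared, 4 higher and 1 lower, where 26.4% of all tested genes passed (14.5% higher and 11.9% lower). The median log2 fold change was 0.43 over the 9 genes and 0.01 over all genes. The count depended on single libraries: it was 2 without siControl replicate 2 and 3 without siLARP4A replicate 1. Those 2 fits had 2698 and 2702 genes called in all, against 4138 with every library.

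CXCL8 in MG63 went from 15.2 and 15.8 FPKM with siControl to 26.0 and 28.2 with siLARP4A. The rise was 0.82 ± 0.09 on the log2 scale (edgeR adjusted p = 7.2e-07), and the groups were widely separated. CCL2, the monocyte attractant and the most abundant of the 10 messengers in this line, went from 41.6 and 44.4 to 57.6 and 56.8 FPKM. Its rise was 0.43 ± 0.09 (edgeR adjusted p = 0.0012), and limma at a pseudocount of 0.1 FPKM did not call it (adjusted p = 0.17). IL1B went from 5.19 and 4.25 to 6.67 and 6.60 FPKM, a rise of 0.51 ± 0.13 (edgeR adjusted p = 0.0052) that was not called without siControl replicate 2. CXCL6 went from 15 and 24 fragments to 7 and 7, a log2 fold change of -1.40 ± 0.49 (edgeR adjusted p = 0.037). CXCL5 went from 10 and 5 fragments to 23 and 21, a log2 fold change of 1.60 ± 0.42 (edgeR adjusted p = 0.0062). The calls of both low genes were lost without siControl replicate 2 or siLARP4A replicate 1, and that of CXCL6 also without siLARP4A replicate 2.

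CXCL1, which fell in PC3, measured 10.4 and 9.10 FPKM with siControl and 8.27 and 8.77 with siLARP4A in MG63. Its log2 fold change was -0.18 with an interval of -0.45 to 0.10 (edgeR adjusted p = 0.39). CXCL3 measured 5.56 and 4.39, then 5.44 and 6.63 FPKM, with overlapping groups (log2 fold change 0.30, edgeR adjusted p = 0.22). CXCL2 (9 to 14 fragments per library) gave 0.40 and IL1A (2 to 16 fragments) gave 1.18, with intervals of -0.56 to 1.36 and 0.02 to 2.34. Neither passed the threshold (edgeR adjusted p = 0.61 and 0.16). The IL1A interval excludes 0 although its unadjusted edgeR p was 0.060, since the intervals use the normal distribution.

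After siLARP4B in MG63, CXCL1, CXCL3, CXCL6 and CCL2 rose and IL1B fell. This was 5 of 9 genes, 4 higher and 1 lower, where 35.1% of all tested genes passed (18.8% higher and 16.3% lower). The median log2 fold change was 0.25 over the 9 genes and 0.00 over all genes. CXCL1 measured 10.4 and 9.10 FPKM with siControl and 16.2 and 22.3 with siLARP4B. Both treated libraries were above both controls and differed from each other, and the rise was 1.01 ± 0.12 (edgeR adjusted p = 1.0e-06). CXCL3 went from 5.56 and 4.39 to 7.75 and 9.29 FPKM, a rise of 0.80 ± 0.16 (edgeR adjusted p = 0.00051). IL1B went the other way, from 5.19 and 4.25 to 2.04 and 2.72 FPKM, with no overlap. Its log2 fold change was -0.96 ± 0.16 (edgeR adjusted p = 5.0e-05).

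The remaining calls after siLARP4B in MG63 were weaker. CXCL6 went from 15 and 24 to 37 and 37 fragments, a log2 fold change of 0.90 ± 0.34 (edgeR adjusted p = 0.041), and the call was lost when any 1 of the 6 MG63 libraries was left out. CCL2 measured 44.3 and 56.0 FPKM, of which the first lay within the siControl range of 41.6 to 44.4. Its log2 fold change of 0.25 ± 0.09 (edgeR adjusted p = 0.041) lost its call in 13 of 22 alternative fits. The count of genes called was 3 without either siControl library, without either siLARP4A library (whose spread enters the shared estimate) or without siLARP4B replicate 2. CXCL8 measured 15.5 and 20.5 FPKM, the first within the control range, and gave 0.24 (edgeR adjusted p = 0.059). It was called in 3 of 22 alternative fits, among them that without siLARP4B replicate 1 (0.42, edgeR adjusted p = 0.0010), and gave 0.018 without siLARP4B replicate 2. CXCL2 had 8 and 21 fragments, below and above both controls, and gave 0.58 (edgeR adjusted p = 0.37). CXCL5 and IL1A had 3 to 6 fragments per library and gave -0.34 and -0.47, with wide intervals of -1.43 to 0.75 and -1.95 to 1.02.

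Against each other in MG63, the 2 siRNAs separated 7 of 9 genes, where 43.6% of all tested genes passed (22.1% higher and 21.5% lower). IL1B (1.47, edgeR adjusted p = 4.1e-08), CXCL8 (0.58, 1.8e-05), CXCL5 (1.94, 0.00099) and IL1A (1.64, 0.040) were higher with siLARP4A in log2 difference. CXCL1 (-1.18, edgeR adjusted p = 7.9e-08), CXCL6 (-2.30, 0.00012) and CXCL3 (-0.50, 0.013) were lower. The IL1A call, on 16 and 8 against 3 and 5 fragments, was lost in 8 alternative fits, among them those without siLARP4A replicate 1, either siLARP4B library or either PC3 siControl library. The CXCL3 call was lost without siLARP4A replicate 1 or siLARP4B replicate 2. These differences and those against siControl share libraries and are not independent of each other.

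Markers of other cell types were read beside the MG63 results. Of 7 leukocyte markers listed, 6 were in the set used, and CD3E and LYZ had 0 fragments in every MG63 library. Their summed level was 2.32 to 2.66 FPKM with siControl, 2.87 to 2.92 with siLARP4A and 1.24 to 1.38 with siLARP4B, a direction that IL1B shared, and CD14 (0.991 to 2.57 FPKM) made up most of it. The 3 endothelial markers, none of them at 0 in MG63, summed to 3.77 to 4.08 FPKM with siControl, 5.97 to 6.83 with siLARP4A and 2.25 to 2.63 with siLARP4B, most of it CDH5 (1.96 to 6.47 FPKM). In PC3 the leukocyte sum was 2.01 to 2.17 FPKM with siControl, 3.07 to 3.83 with siLARP4A and 2.64 to 3.28 with siLARP4B, with CD3E at 0 throughout. Most of it was CD79A (0.698 to 2.53 FPKM) and LYZ (0.493 to 1.58 FPKM). This sum was higher with both siRNAs, whereas IL1B gave log2 fold changes of 0.02 and -0.08 in PC3. With siControl, siLARP4A and siLARP4B in that order, the 4 epithelial markers in PC3 summed to 495 to 498, 616 to 640 and 523 to 533 FPKM. In MG63 they summed to 69.4 to 70.1, 63.7 to 65.9 and 52.6 to 54.3 FPKM. Nearly all of the MG63 sum was KRT8 and KRT18. The 4 osteoblastic or mesenchymal markers in MG63 summed to 1922 to 1966 FPKM with siControl, 2583 to 2686 with siLARP4A and 1915 to 2138 with siLARP4B. Their sum was thus higher with siLARP4A, while the siLARP4B libraries lay on either side of the controls. The part of these markers in the cytokine results was not tested.

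Whether a knockdown acted differently in the 2 lines was tested with the interaction term, the log2 effect in PC3 minus that in MG63. For siLARP4A, 2 of 9 genes passed, both lower in PC3, where 11.4% of all tested genes passed (4.1% higher and 7.29% lower). Over all genes, 36.0% of these calls were higher in PC3, and 51.7% with the longest model of each gene, so the balance of directions depended on the processing. CXCL8 differed by -1.52 ± 0.13 (edgeR adjusted p = 9.7e-08), having fallen by 0.70 in PC3 and risen by 0.82 in MG63. CXCL1 differed by -0.90 ± 0.17 (edgeR adjusted p = 0.0015), and IL1B by -0.50 (edgeR adjusted p = 0.056). For siLARP4B, 2 of 9 genes passed, where 27.9% of all tested genes passed (10.3% higher and 17.6% lower). CXCL1 differed by -1.13 ± 0.16 (edgeR adjusted p = 1.1e-05), having risen in MG63 and given -0.13 in PC3. IL1B differed by 0.88 ± 0.19 (edgeR adjusted p = 0.0012), having fallen in MG63 and given -0.08 in PC3. For CXCL6 the siLARP4A effects were -1.17 and -1.40, and their difference of 0.23 had an interval of -0.81 to 1.27, too wide to show that they were alike. The growth media differed between the lines, so line and medium cannot be told apart. The depth of knockdown differed too: LARP4 was left at 12.6% of siControl in PC3 and 25.8% in MG63 after siLARP4A. LARP4B was left at 18.4% and 30.5% after siLARP4B, when LARP4 was at 98.3% in PC3 and 132.8% in MG63. Line and these differences cannot be told apart either.

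The proportion of CXCL1 to CXCL8, which act on the same receptor CXCR2, was computed within each library as a ratio of FPKM. In PC3 it was 1.09 and 1.13 with siControl, 0.824 and 0.891 with siLARP4A and 0.739 and 0.699 with siLARP4B. Both knockdowns thus had lower ratios than the controls, through a larger fall of CXCL1 in the first and a rise of CXCL8 in the second. In MG63 it was 0.685 and 0.576 with siControl, 0.318 and 0.311 with siLARP4A and 1.05 and 1.09 with siLARP4B. The 3 groups of a line did not overlap in either line. The share of CXCL8 in the summed FPKM of the 6 CXC chemokines in MG63 was 46.9% and 51.6% with siControl, 63.4% and 62.7% with siLARP4A, and 37.6% in both siLARP4B libraries. This ratio was not tested.

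**Figure D3:**
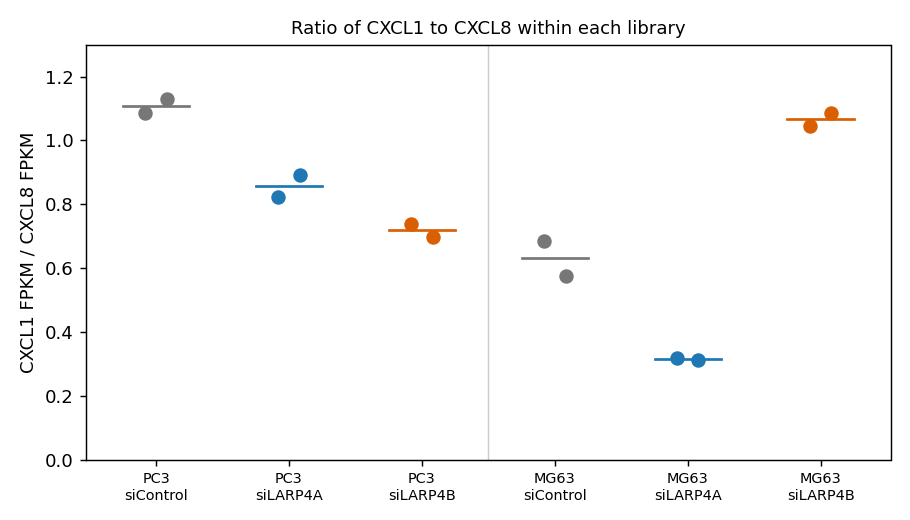
Ratio of CXCL1 FPKM to CXCL8 FPKM (vertical axis, from 0) in each library (points) by group (horizontal axis), with lines at the group means. In MG63 the siLARP4A libraries sit at 0.318 and 0.311 and the siLARP4B libraries at 1.05 and 1.09, on either side of the controls, and in PC3 both knockdowns sit below the controls.

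Position along chromosome 4 was set beside these changes. Measured from the CXCL8 start, CXCL6 starts at 96.1 kb, CXCL1 at 128.8 kb, CXCL5 at 258.1 kb, CXCL3 at 298.1 kb and CXCL2 at 358.6 kb. CXCL8, CXCL6 and CXCL1 are transcribed from the plus strand, and CXCL5, CXCL3 and CXCL2 from the minus strand. In PC3 after siLARP4A, the 3 plus-strand genes were those that fell, and the 3 minus-strand genes had positive values, of which only CXCL5 passed the test. In MG63 after siLARP4A the plus-strand genes did not move together: CXCL8 rose, CXCL6 fell and CXCL1 gave -0.18. The 4 other symbols in the interval, PF4V1, PF4, PPBP and PPBPP2, had at most 29 fragments over all 12 libraries and were not tested.

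**Figure D4:**
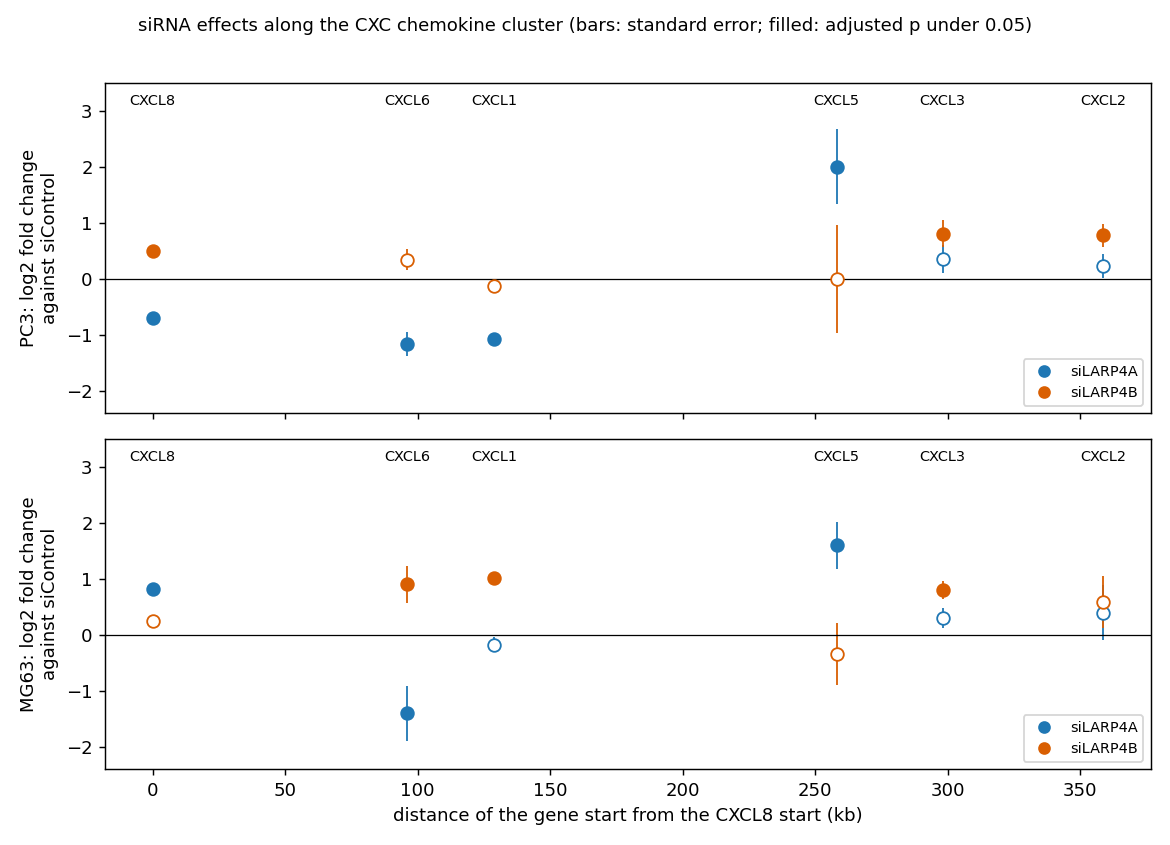
Log2 fold change against siControl (vertical axes) of the 6 CXC chemokine genes by the distance of their start from the CXCL8 start in kb (horizontal axis), in PC3 (top) and MG63 (bottom), for siLARP4A (blue) and siLARP4B (orange), with standard errors. Filled symbols passed an edgeR adjusted p of 0.05. In PC3 the siLARP4A values are -0.70, -1.17 and -1.07 for CXCL8, CXCL6 and CXCL1 and positive for the other 3 genes.

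The receptors CXCR1, CXCR2 and CCR2 of these chemokines were nearly undetected. Of the interleukin receptors, IL6R and IL1RAP were expressed in both lines, whereas IL1R1 was expressed in MG63 and low in PC3. CXCR2 had 0 fragments in all 12 libraries, and CXCR1 and CCR2 had at most 1 fragment in any library. Of 16 receptor genes listed, 7 were tested. After siLARP4A, 3 rose and 1 fell in PC3, and 2 rose and 1 fell in MG63, and after siLARP4B none rose and 1 fell in PC3, and 2 rose and 1 fell in MG63. These counts, like those of the gene lists that follow, stand beside the shares of all tested genes called: 36.0% in PC3 and 26.4% in MG63 after siLARP4A, and 44.7% and 35.1% after siLARP4B. IL6R, the ligand-binding IL6 receptor, rose by 0.54 ± 0.06 after siLARP4A in PC3 and fell by 0.24 ± 0.06 after siLARP4B there, from 10.1 FPKM with siControl. In MG63, IL6R fell by 0.42 after siLARP4B from 16.2 FPKM. IL1RAP, the shared signalling chain of interleukin 1 receptors, rose by 0.61 after siLARP4A in PC3 and by 0.72 after siLARP4B in MG63. ACKR3, a scavenger receptor for CXCL12, rose by 0.80 and 0.79 after siLARP4A and siLARP4B in MG63. CXCR4, the signalling receptor for CXCL12, went from 1.18 to 0.485 FPKM after siLARP4A in PC3. IL1R1, the signalling receptor of IL1A and IL1B, measured 9.38 and 8.68 FPKM with siControl in MG63 and 0.293 and 0.182 in PC3.

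Of 29 other chemokines listed, 7 were tested. After siLARP4A, 1 fell in PC3 and 1 rose in MG63, and after siLARP4B, 1 fell in PC3, while 2 rose and 2 fell in MG63. CXCL16, a membrane-bound chemokine, fell by 0.69 after siLARP4A and by 0.75 after siLARP4B in PC3, and by 0.69 after siLARP4B in MG63. CXCL10, an interferon-induced chemokine, had 14 and 8 fragments with siControl in MG63 and 60 and 75 with siLARP4B. This was a log2 fold change of 2.58 ± 0.33 (edgeR adjusted p = 4.7e-06).

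Of 34 other interleukins and IL6-family cytokines, 14 were tested. After siLARP4A, 2 rose and 1 fell in PC3 and 3 rose in MG63. After siLARP4B, 4 rose in PC3, while 2 rose and 1 fell in MG63. IL32, a cytokine that induces other inflammatory cytokines, rose by 0.97 after siLARP4A and 1.08 after siLARP4B in PC3, and by 1.39 after siLARP4A in MG63, where its FPKM went from 6.43 and 6.51 to 15.7 and 17.8. LIF, an IL6-family cytokine, rose by 0.74 and 0.69 after siLARP4A and siLARP4B in MG63. IL11, another of that family, rose by 0.98 after siLARP4A in PC3, and IL24 by 1.35 after siLARP4B in PC3. The genes that fell were IL18, by 0.27 after siLARP4A in PC3, and CLCF1, by 0.39 after siLARP4B in MG63.

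The NF-kB and C/EBP pathway genes all passed the expression filter, 24 of 24. After siLARP4A, 6 rose and 3 fell in PC3 and 7 rose and 2 fell in MG63. After siLARP4B, 8 rose and 3 fell in PC3 and 6 rose and 6 fell in MG63. The 9 of 24 and 11 of 24 genes called in PC3 were close to the 36.0% and 44.7% of all tested genes. In MG63 the genes called, higher and lower together, were larger shares of the 24 than the 26.4% and 35.1% of all tested genes. The difference in shares was not tested. The median log2 fold changes were 0.10, 0.10, 0.05 and -0.03 in that order. TNFAIP3, an NF-kB target that feeds back on the pathway, rose by 0.85 after siLARP4A and 0.82 after siLARP4B in PC3 and by 0.74 after siLARP4A in MG63, where it gave -0.24 after siLARP4B (edgeR adjusted p = 0.10). MYD88, the adaptor of interleukin 1 receptors, fell by 0.73 and 0.67 after siLARP4A in PC3 and MG63 and rose by 0.27 and 0.58 after siLARP4B. NFKB1, an NF-kB subunit, fell by 0.60 and 0.36 after siLARP4B in PC3 and MG63.

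Of 10 genes for interleukin 1 processing and antagonism, 7 were tested. After siLARP4A, 1 rose in each line. After siLARP4B, 2 rose in PC3 and 3 fell in MG63. CASP1, the protease that matures IL1B, measured 2.85 and 2.73 FPKM with siControl in MG63 and 1.46 and 1.94 with siLARP4B. Its log2 fold change was -0.69 ± 0.21 (edgeR adjusted p = 0.014), in the same libraries in which IL1B fell. SIGIRR, an inhibitory receptor of this family, rose by 1.12 after siLARP4B in PC3.

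All 10 genes of the JAK-STAT3 list were tested. After siLARP4A, 3 rose and 3 fell in PC3 and 2 rose and 2 fell in MG63, and after siLARP4B, 2 rose and 2 fell in PC3 and 2 rose and 1 fell in MG63. STAT3, the transcription factor downstream of IL6, had at most 1 fragment in any PC3 library and 35.5 and 35.1 FPKM with siControl in MG63. PC3 is known to lack the STAT3 gene. The line with IL6 fragments was therefore the one with almost no STAT3 fragments. SOCS3, a feedback inhibitor of IL6 signalling, rose by 0.67 after siLARP4A in PC3 and by 0.36 in MG63, and fell by 0.25 after siLARP4B in MG63. PTPN11, a phosphatase of this pathway, fell by 0.96 after siLARP4A and 0.47 after siLARP4B in PC3, and by 0.52 after siLARP4A in MG63.

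For the gene among the 10 with the highest mean FPKM in each line, the 3 genes with the nearest profile over the line's 6 libraries were listed by Pearson's r of log2 CPM, counts scaled to the library size. For CXCL8 in PC3 these were COMMD6 (r = 0.9997), COPB2 (0.9992) and CTBP2 (0.998), of 8346 genes at 5 FPKM or more. For CCL2 in MG63 they were UBR3 (0.982), RIOK2 (0.982) and ATP2A2 (0.980), of 7770. Over 3 groups of 2 libraries, r above 0.9 was reached by 1035 of the 8346 genes in PC3 and by 91 of the 7770 in MG63. How many genes came near the listed values was not counted. The listed values are given as a description with no test.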

How the data were processed

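The 10 genes, the pathway lists and the marker lists were chosen with earlier results of these data known. The authors deposited 1 table per library with a fragment count per transcript model, and, per the file headers, FPM and FPKM values. The deposited FPM signal is the count scaled to 1 library total, and the deposited FPKM is FPM per kilobase of the model. The submitters' processing notes name FastQC, HISAT2, featureCounts, edgeR and hg38, and their settings are not given in the sources used here. A fragment is counted in each model that holds it, so the deposited FPM signal sums to 3198732 to 3448919 per library.

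Models on chromosomes 1 to 22 and X were kept, each symbol was represented by its model of highest summed fragment count, and 1748 symbols with models at several loci were left out. Counts of the 15668 genes that passed edgeR's filter (minimum count 10) entered edgeR 4.0.16 (R 4.3.3): TMM scaling, 1 mean per group, all 12 libraries, two-sided quasi-likelihood F-tests, and Benjamini-Hochberg adjustment within each of 9 comparisons at 0.05. Intervals of fold changes are 95% intervals from the standard error and the normal distribution, so they are somewhat narrower than the F-test implies. All 10 genes passed the filter, IL6 through PC3 alone. The common coefficient of variation was 4.21%, and the spread of a gene with 2 libraries is largely borrowed from other genes. Alternatives used DESeq2 1.42.0, limma 3.58.1 with a pseudocount of 1 or 0.1 FPKM, other scaling, filters and models, and the omission of each library. All 10 genes, LARP4, LARP4B and, from each list, at most 2 highest and 2 lowest genes past the threshold with 1 FPKM or more are named. The receptors CXCR1, CXCR2 and CCR2 were named after their values were seen.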

Additional observations from a re-analysis of the deposited data

Results flagged for a closer look

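The effect of a knockdown differed between PC3 and MG63, by the interaction term, for 4 gene and siRNA combinations. After siLARP4A, the log2 effect in PC3 minus that in MG63 was -1.52 for CXCL8 and -0.90 for CXCL1. After siLARP4B it was -1.13 for CXCL1 and 0.88 for IL1B. CXCL1 is the gene that differed for both siRNAs, and CXCL8 after siLARP4A is the combination with opposite calls in the 2 lines. All 4 differences kept their sign and their call in each alternative fit in which they could be computed.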

How the results depend on the processing

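With 2 libraries per group, low genes (CXCL5, IL1A and IL6 throughout, CXCL2 and CXCL6 in MG63, CCL2 in PC3) rest on few fragments. Of 84 fold changes of the 10 genes, 41 passed the threshold, none of these changed sign in the 22 alternatives run, of which 12 leave out 1 library, and 27 kept their call in every alternative that gave an adjusted p. Deviations of same-numbered libraries correlated at -0.03 to 0.05 over 15668 genes. Counting noise lowers such correlations, so they cannot show whether the replicate numbers of the labels mark a shared origin. With the replicate block, 6 genes instead of 5 were called after siLARP4B in MG63, the sixth being CXCL8 (0.24, edgeR adjusted p = 0.038), and the CXCL3 interaction for siLARP4B became 8.97e-06.

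DESeq2 called 3 genes for siLARP4A against siLARP4B in PC3, 3 for siLARP4B against siControl in MG63 and 4 for siLARP4A against siLARP4B in MG63. The count of 4 leaves out CXCL5, to which DESeq2 gave no adjusted p there. At a pseudocount of 1, limma called 3 for siLARP4B against siControl in MG63. The cause of the lost calls was not tested. limma moved the median of all genes between the lines from 0.02 to 0.11 (pseudocount 1) and 0.17 (0.1), and the higher share of calls in the siLARP4B interaction from 37.0% to 54.4% and 52.8%. That share in the siLARP4A interaction moved from 36.0% to 51.7% with the longest model, 51.5% without PC3 siControl replicate 1, 49.1% and 54.4% without siLARP4A replicate 1 and 2 of PC3, and 50.6% without either siLARP4B library of PC3. Leaving out 1 library gave 1 to 3 genes for siLARP4B and 3 to 5 for siLARP4A against siLARP4B in PC3, 2 to 5 for siLARP4A and 3 to 5 for siLARP4B in MG63. Over all genes, siLARP4A in MG63 had 4138 calls, and 2701, 2698 and 2702 without siControl replicate 1, siControl replicate 2 and siLARP4A replicate 1. The siLARP4A interaction had 1784 calls, and 1049 to 1175 without any 1 MG63 siControl or siLARP4A library or PC3 siControl replicate 1.

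The values that changed sign were all below the threshold, and the cause was not tested. In the interaction for siLARP4A, limma at a pseudocount of 1 gave 0.073 for CXCL2, -0.18 for CXCL5 and -0.43 for CXCL6, and at 0.1 gave -0.22 for CXCL5. In that for siLARP4B, CXCL3 was 0.019 with DESeq2, 0.018 with RLE size factors, 0.018 with a minimum of 1 FPKM, 0.035 with limma at 0.1 and 0.042 with the longest model. CXCL5 after siLARP4B in PC3 was 0.0018 with DESeq2, 0.011 with RLE size factors and 0.027 with the longest model. IL1A after siLARP4A in PC3 was -0.019 with the deduplicated table of siControl replicate 2. Without 1 library, log2 fold changes in PC3 ran from -0.69 to 0.041 (CCL2), -0.28 to 0.42 (IL1A) and -0.014 to 0.46 (IL6) after siLARP4A, and from -0.39 to 0.35 (CCL2), -0.81 to 0.50 (CXCL5), -0.060 to 0.56 (IL1A), -0.10 to 0.0080 (IL1B) and -0.40 to 0.076 (IL6) after siLARP4B. IL1A between the 2 siRNAs ran from -0.55 to 0.16. In MG63 after siLARP4B they ran from -0.30 to 1.13 (CXCL2), -0.80 to 0.27 (CXCL5) and -1.13 to 0.89 (IL1A), and CXCL2 between the 2 siRNAs from -0.75 to 0.69. The siLARP4A interaction ran from -0.35 to 0.050 (CXCL2), -0.13 to 0.25 (CXCL3), -0.22 to 0.85 (CXCL5) and -0.11 to 0.64 (CXCL6), and the siLARP4B interaction from -0.63 to 0.11 (CCL2), -0.37 to 1.06 (CXCL2), -0.19 to 0.18 (CXCL3), -0.46 to 0.84 (CXCL5) and -0.67 to 1.36 (IL1A).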
